A study of Arabidopsis thaliana with 4 samples.

Results

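The transcripts described here are 9 defence genes of Arabidopsis thaliana that are read as end points of hormone signalling in leaves. They were picked by locus from the 24904 loci of the deposited count table. PR1 (AT2G14610), PR2 (AT3G57260) and PR5 (AT1G75040) are salicylate outputs. PR3 (AT3G12500) and PR4 (AT3G04720) are outputs of jasmonate together with ethylene. VSP1 (AT5G24780), VSP2 (AT5G24770), CORI3 (AT4G23600) and CLH1 (AT1G19670) are jasmonate outputs. All 9 had a row in the count table and passed the filter on low counts. PR3 and VSP1 passed it through the leaf libraries only, which favoured a lower call in protoplasts.

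Poly(A) RNA was sequenced in 2 libraries of leaf protoplasts and in 2 libraries of intact leaf, all of wild-type Col-0. All plants were 6 weeks old and grown under short days (8 h light, 16 h dark). Protoplast samples had the abaxial epidermis peeled off and spent 2 h in 1% cellulase and 0.3% macerozyme with 0.6 M mannitol. The leaf samples did not pass through peeling, enzymes or mannitol, so these steps cannot be told apart. The labels call the libraries biological replicates without naming plants or days, so p-values describe the variation among 4 libraries, part of which may be technical.

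Salicylate accumulates in response to biotrophic pathogens, and through the coactivator NPR1 and TGA transcription factors it raises transcripts of the secreted proteins PR1, PR2 and PR5. Jasmonoyl-isoleucine is made after wounding, insect feeding or necrotrophic infection. Its receptor COI1 removes the JAZ repressors, which frees MYC factors to raise storage protein and wound genes such as VSP1, VSP2 and CORI3, while EIN3 and ERF factors, with ethylene, raise PR3, PR4 and the defensin PDF1.2. Both hormones are known to restrain each other's outputs in leaves, and the MYC and ERF branches also oppose each other.

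Total counts were 48503141 and 39958035 in the protoplast libraries and 42121436 and 43685947 in the leaf libraries. Levels are given as CPM (counts scaled to a fixed library size) after scaling by edgeR's TMM factors, and differences as log2 fold changes of protoplast over leaf. Of 20200 tested genes, 80.5% had an adjusted p under 0.05, 39.8% as higher and 40.7% as lower in protoplasts, and 41.8% were called and at least 2-fold changed. The protoplast and leaf libraries did not overlap for 90.3% of tested genes. Markers of mesophyll were present in both kinds of sample, with RCA, the Rubisco activase, at 20550 and 21190 CPM in protoplasts and 14580 and 14680 CPM in leaf. Markers of the other leaf cell types except trichomes were far lower in protoplasts. Summed epidermal markers had 9.61 and 9.39 CPM in protoplasts, against 868 and 894 CPM in leaf, with all 6 tested genes lower and a median log2 fold change of -7.68. The 5 phloem parenchyma markers summed to 15.3 and 14.3 CPM in protoplasts and 346 and 360 CPM in leaf, and the 6 companion cell and sieve element markers to 17.5 and 17.6 CPM and 659 and 692 CPM in the same order. All 6 guard cell markers summed to 2.54 and 2.44 CPM in protoplasts and 44.3 and 45.3 CPM in leaf, the 6 xylem markers to 1.86 and 2.14 CPM and 29.9 and 33.4 CPM, and the 3 bundle sheath markers to 4.92 and 4.71 CPM and 17.7 and 19.3 CPM, and each of these genes was lower in protoplasts. Of the markers given so far, 1 companion cell and sieve element, 4 guard cell, 3 xylem and 2 bundle sheath markers passed the filter through leaf only. This favoured their direction. PDF1 of the epidermis, ALMT12 of guard cells and VND7 of xylem had 0 counts in both protoplast libraries. Of 2 tested trichome markers, GL2 was lower and GL1 higher in protoplasts. Here 1 passed the filter through protoplasts only and 1 through leaf only, which favoured their directions. Summed, the 3 listed trichome markers had 0.972 and 1.10 CPM in protoplasts and 1.04 and 1.07 CPM in leaf. The part of these cell types in the results below was not tested, and in bulk samples fewer cells of a type and less RNA per cell cannot be told apart.

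Among the 9 genes, 3 were higher in protoplasts, 4 were lower and 2 did not pass the test. The 7 calls in 9 stand against 80.5% of all tested genes, and the 4 genes called with at least a 2-fold change stand against 41.8%, so neither share sets these genes apart from the rest of the transcriptome. The libraries of protoplast and leaf overlapped for PR1 and did not for the other 8, against 90.3% of all tested genes without overlap. The salicylate outputs had 2 genes higher and 1 not called, both jasmonate and ethylene outputs were lower, and the jasmonate outputs had 1 higher, 2 lower and 1 not called. The median log2 fold change of the 9 genes was -0.45, beside -0.04 for all tested genes. Together they held 5734 and 4440 counts in the protoplast libraries, or 0.0118% and 0.0111% of all counts, and 8472 and 9127 counts in the leaf libraries, or 0.0201% and 0.0209%.

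**Figure D1:**
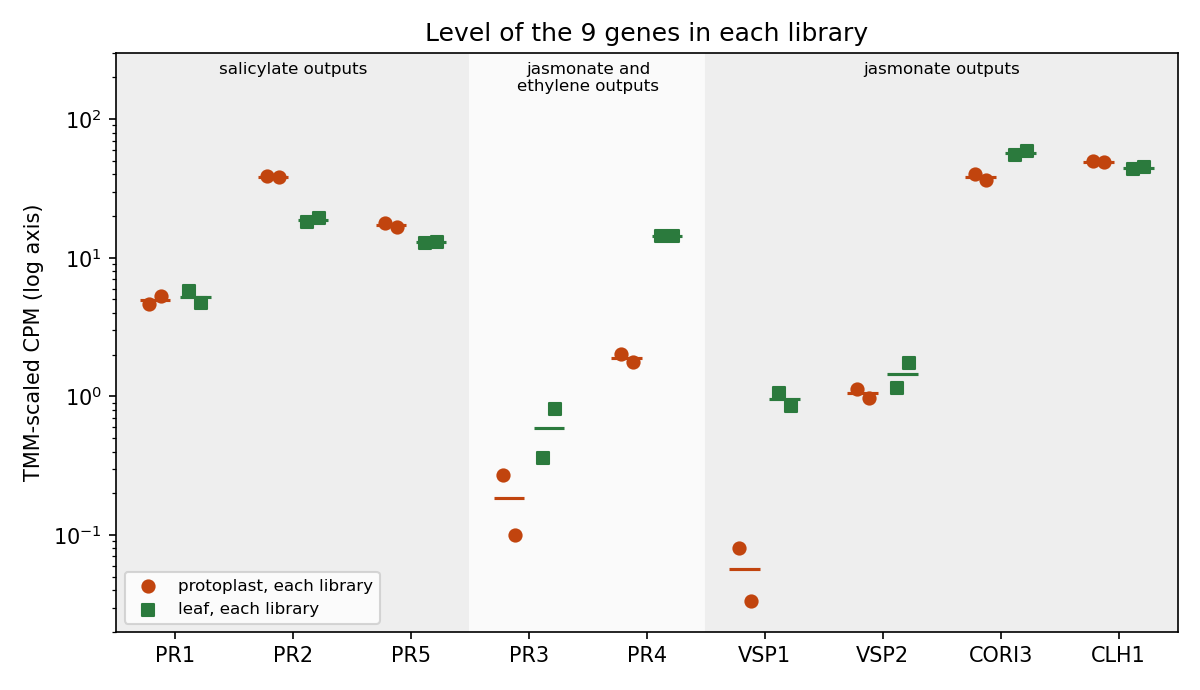
Each point is the TMM-scaled CPM of a gene in 1 library, on a log axis, with protoplast libraries as circles left of leaf libraries as squares, and each short line is the mean of the 2 libraries of a group. PR2 and PR5 sit higher in protoplasts, PR1 is level, and PR4 and VSP1 sit far lower in protoplasts than in leaf.

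PR2 encodes an acidic beta-1,3-glucanase that cuts fungal wall glucan and plant callose. It had 1441 and 1139 counts in the protoplast libraries and 1005 and 1112 in the leaf libraries, which is 38.9 and 38.1 CPM in protoplasts, against 18 and 19.3 CPM in leaf. Both protoplast libraries were close to each other and stood well above both leaf libraries. PR2 averaged 38.5 ± 0.6 CPM in protoplasts and 18.7 ± 0.87 CPM in leaf (SD, n = 2 each), a log2 fold change of 1.05 ± 0.06 (SE) by edgeR's quasi-likelihood test with a Benjamini-Hochberg adjusted p of 9.27e-09. PR2 was called higher under each scaling of the libraries, but the size varied. The log2 fold change was 0.72 with upper-quartile factors, 0.74 when scaled to 10 housekeeping genes and 0.24 with library size alone. These housekeeping genes were themselves not all level between protoplast and leaf, as given below.

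PR5 encodes a thaumatin-like protein of the cell exterior. It had 17.8 and 16.5 CPM in protoplasts and 12.8 and 13 CPM in leaf. The protoplast libraries were again the higher ones, by a smaller margin, with a log2 fold change of 0.42 ± 0.08 (edgeR adjusted p = 0.000313). This call depended on how the libraries were scaled: the fold change was 0.09 with upper-quartile factors, 0.11 when scaled to the housekeeping genes, neither past the threshold, and -0.39 with library size alone.

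PR1 encodes a small secreted protein of the CAP family and is the usual marker of salicylate-dependent resistance. It had 171 and 159 counts in protoplasts and 321 and 270 in leaf, which is 4.62 and 5.31 CPM in protoplasts and 5.76 and 4.68 CPM in leaf. The libraries interleave, and the log2 fold change of -0.08 ± 0.14 did not pass the test (edgeR adjusted p = 0.618). With counting error alone, the ratio of protoplast to leaf was 0.946 (exact 95% interval 0.824 to 1.08). PR1 was lower in protoplasts when scaled by upper-quartile factors (log2 fold change -0.40), to the housekeeping genes (-0.38) or by library size alone (-0.88). Within a library, PR2 held 8.43 and 7.16 times the counts of PR1 in protoplasts, against 3.13 and 4.12 times in leaf, and this ratio does not depend on scaling.

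PR4 encodes a hevein-like protein that binds chitin. It had 75 and 53 counts in the protoplast libraries, against 800 and 827 in the leaf libraries. The levels were 2.03 and 1.77 CPM in protoplasts and 14.4 and 14.3 CPM in leaf, so that the leaf libraries were nearly equal and both protoplast libraries were far under them. PR4 was 7.5-fold higher in leaf by summed counts (exact 95% interval for counting error 6.26 to 9.05), and its log2 fold change of -2.91 ± 0.12 passed the test (edgeR adjusted p = 1.34e-10). With library size alone it was -3.71.

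PR3 encodes a basic vacuolar chitinase and was scarce in all libraries. It had 10 and 3 counts in protoplasts and 20 and 47 in leaf, or 0.270 and 0.100 CPM in protoplasts and 0.359 and 0.815 CPM in leaf. The groups did not overlap, but the lower leaf library stood close to the higher protoplast library. The log2 fold change of -1.59 ± 0.55 passed the test (edgeR adjusted p = 0.0178), and it was -2.39 with library size alone. The call was lost in DESeq2, at an adjusted p of 0.0648. It was also lost when leaf replicate 2 was left out (-0.89, edgeR adjusted p = 0.237) and when protoplast replicate 2 was (-1.12, edgeR adjusted p = 0.121). In RefSeq's annotation of TAIR10.1 a long noncoding RNA, AT3G12502, lies on the opposite strand over PR3. Whether the counting used strand is not stated in the labels or files, so reads of the pair cannot be told apart.

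VSP1 encodes a vegetative storage protein of the acid phosphatase family that accumulates after wounding and jasmonate. It had 3 and 1 counts in the protoplast libraries, against 59 and 49 in the leaf libraries, or 0.0810 and 0.0334 CPM in protoplasts and 1.06 and 0.849 CPM in leaf. Few transcripts were present in leaf and almost none in protoplasts. By summed counts VSP1 was 15.9-fold higher in leaf (exact 95% interval for counting error 6.05 to 59.5). The log2 fold change was -3.94 ± 0.50 (edgeR adjusted p = 1.08e-05), the lowest of the 9 genes. It was -4.74 without protoplast replicate 1, -3.52 without protoplast replicate 2 and -4.72 with library size alone, each called.

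VSP2, the neighbouring relative of VSP1 and the more widely used marker of the MYC branch, did not pass the test. It had 42 and 29 counts in protoplasts and 64 and 100 in leaf, or 1.13 and 0.969 CPM in protoplasts and 1.15 and 1.73 CPM in leaf. The higher protoplast library lay just under the lower leaf library. The log2 fold change was -0.45 ± 0.26 (edgeR adjusted p = 0.135), which became -0.72 with an adjusted p of 0.0236 without leaf replicate 1, and it passed the threshold as lower, at -0.77, -0.76 and -1.25, with upper-quartile factors, the housekeeping genes and library size alone. Within a library VSP2 held 14.0 and 29.0 times the counts of VSP1 in protoplasts, against 1.08 and 2.04 times in leaf. The protoplast ratios rest on only 3 and 1 counts of VSP1, so their size is poorly fixed. The coding sequences of VSP1 and VSP2 are 88.1% identical in the TAIR10.1 annotation, but only 5 of the 1269 windows of 50 bases in the VSP1 transcript also occur in VSP2.

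CORI3 encodes a cystine lyase of the tyrosine aminotransferase family that is induced by coronatine, a bacterial mimic of jasmonoyl-isoleucine. It had 40.1 and 36.6 CPM in protoplasts and 54.8 and 58.6 CPM in leaf. Both protoplast libraries were lower, and the log2 fold change of -0.56 ± 0.06 passed the test (edgeR adjusted p = 3.77e-06). It was -0.89 with upper-quartile factors, -0.87 with the housekeeping genes and -1.37 with library size alone, each called.

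CLH1 encodes a chlorophyllase, which can remove the phytol tail of chlorophyll, and is also induced by coronatine and methyl jasmonate. It had 49.9 and 49 CPM in protoplasts and 43.7 and 44.9 CPM in leaf. The groups did not overlap and differed little, with a log2 fold change of 0.16 ± 0.05 (edgeR adjusted p = 0.0175). The direction turned with the scaling, to -0.17 with upper-quartile factors, -0.15 with the housekeeping genes and -0.65 with library size alone, each past the threshold. The call was also lost without a filter on low counts and without leaf replicate 1, leaf replicate 2 or protoplast replicate 1, where the adjusted p was 0.067, 0.15, 0.061 and 0.0975. A replicate block in the model ended the call too (edgeR adjusted p = 0.0608). Within a library CLH1 held 1.25 and 1.34 times the counts of CORI3 in protoplasts and 0.799 and 0.767 times in leaf.

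Divided by coding length, the levels could be ordered within each kind of sample. In protoplasts CLH1 was highest at 51.2 and 50.3 CPM per kb, followed by PR2 at 36.4 and 35.7, CORI3 at 31.6 and 28.8 and PR5 at 24.7 and 23.0 CPM per kb. PR1 followed at 9.50 and 10.9, PR4 at 3.17 and 2.77 and VSP2 at 1.42 and 1.22 CPM per kb. PR3 and VSP1 were lowest, and their protoplast libraries overlapped. In leaf, CORI3 at 43.1 and 46.2 CPM per kb and CLH1 at 44.9 and 46.1 CPM per kb overlapped at the top. PR4 came next at 22.5 and 22.4 CPM per kb, above PR5 at 17.8 and 18 and PR2 at 16.9 and 18 CPM per kb, which overlapped with each other. PR1, then VSP2, VSP1 and PR3 followed.

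The ranks among the 19347 tested genes with a coding length give the same levels against the rest of each transcriptome. PR4 stood at percentiles 33.1 and 31.4 in the protoplast libraries, against 75.2 and 75.3 in the leaf libraries. PR2 stood at percentiles 79.1 and 78.7 in protoplasts and 69.0 and 70.5 in leaf. CORI3 stood at percentiles 77 and 75.3 in protoplasts and 86.1 and 87.0 in leaf. CLH1, whose CPM was slightly higher in protoplasts, ranked slightly lower there, at percentiles 84.0 and 83.5 in protoplasts and 86.6 and 86.9 in leaf. The ranks of PR1 and VSP2 overlapped between the kinds of sample.

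**Figure D2:**
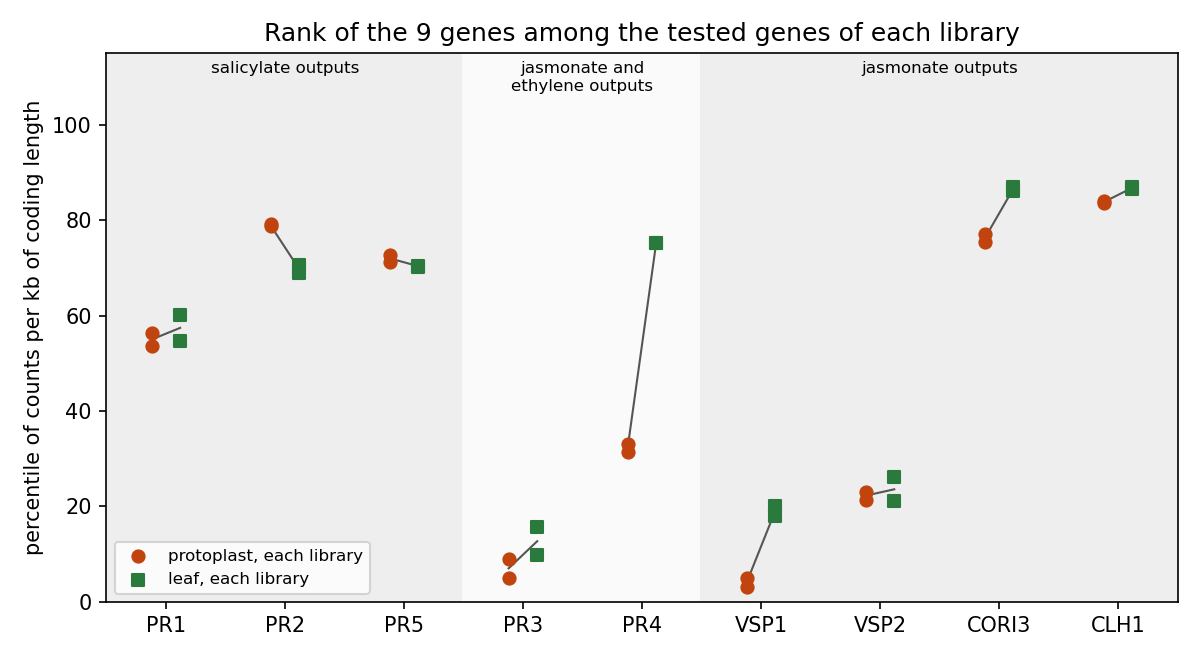
Each point is the percentile of a gene in 1 library, by counts per kb of coding length among the tested genes, with protoplast libraries as circles left of leaf libraries as squares, and lines join the group means. PR4 has the widest step, between 31.4 and 33.1 in protoplasts and 75.2 and 75.3 in leaf.

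The balance between the hormone classes was also taken within each library, where no scaling between libraries enters. The salicylate outputs made up 39.6% and 40.4% of the summed counts of the 9 genes in protoplasts, against 24.1% and 23.3% in leaf. This difference of 16.3 percentage points was far wider than the spread between replicates, with SDs of 0.549 in protoplasts and 0.533 in leaf. An exact two-sided permutation test gave p = 0.33, the smallest value that 2 libraries against 2 allow. Per kb of coding length the salicylate share was 44.6% and 45.5% in protoplasts and 29.1% and 27.8% in leaf. PR3 and PR4 together held 1.48% and 1.26% in protoplasts and 9.68% and 9.58% in leaf. The jasmonate outputs held 58.9% and 58.4% in protoplasts and 66.2% and 67.1% in leaf. PR2 alone held 25.1% and 25.7% in protoplasts and 11.9% and 12.2% in leaf. PR5 held 11.5% and 11.1% in protoplasts and 8.44% and 8.20% in leaf. PR1 held 2.98% and 3.58% in protoplasts and 3.79% and 2.96% in leaf, without a rise. These are shares of a sum that itself made up 0.0118% and 0.0111% of all counts in protoplasts and 0.0201% and 0.0209% in leaf. CORI3 held 25.9% and 24.7% in protoplasts and 36.0% and 37.0% in leaf, and CLH1 held 32.2% and 33.0% in protoplasts and 28.8% and 28.4% in leaf. The ratio of PR2 to CORI3 counts was 0.971 and 1.04 in protoplasts and 0.329 in both leaf libraries, and that of PR2 to PR4 was 19.2 and 21.5 in protoplasts and 1.26 and 1.34 in leaf.

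**Figure D3:**
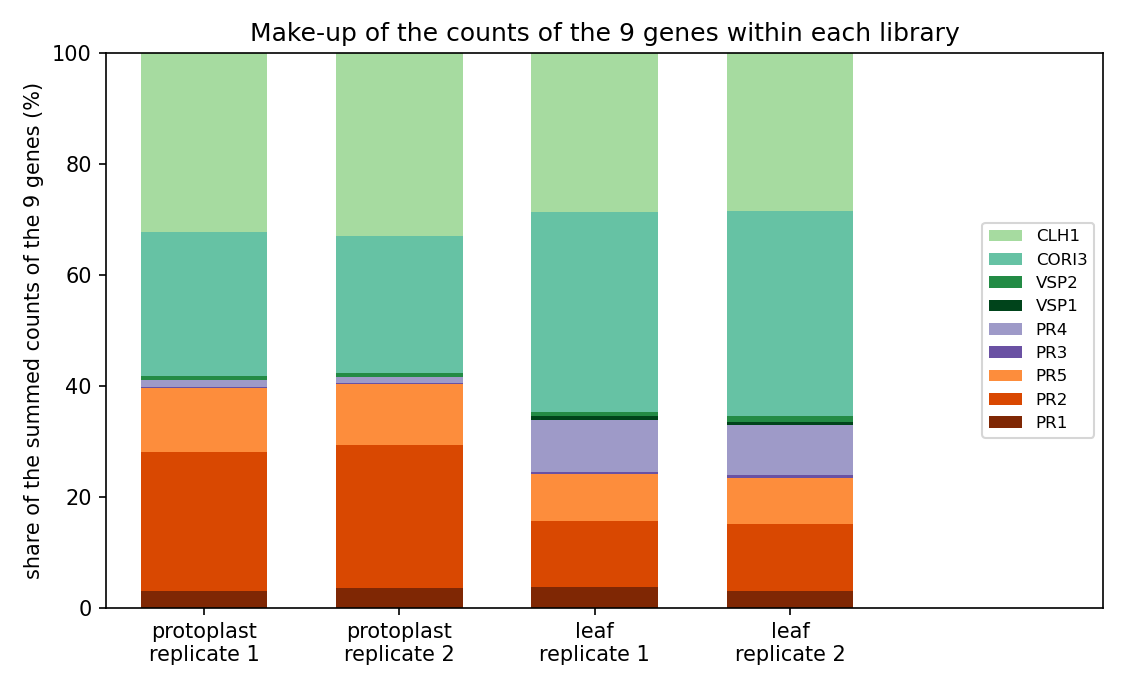
Stacked bars give each gene's share of the summed counts of the 9 genes in each library, in percent, with the protoplast libraries left of the leaf libraries. PR2 holds 25.1% and 25.7% in protoplasts and 11.9% and 12.2% in leaf, while PR4 holds 1.31% and 1.19% in protoplasts and 9.44% and 9.06% in leaf.

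Lists of genes that make, perceive and relay the hormones were set beside these outputs. The lists also hold other genes that respond to the hormones, such as TAT3, JAL35 and GRX480. They therefore do not separate signalling genes from outputs. Of 18 listed genes of the jasmonate MYC branch, all tested, 14 were higher in protoplasts, 3 were lower and 1 did not pass the test, against 39.8% higher and 40.7% lower of all tested genes, with a median log2 fold change of 5.46 beside -0.04 for all tested genes. JAZ10, a repressor that the pathway itself induces, had 235 and 213 CPM in protoplasts and 0.377 and 0.121 CPM in leaf (log2 fold change 9.81 ± 0.15). AOS, the allene oxide synthase of jasmonate synthesis, had 5364 and 5256 CPM in protoplasts and 112 and 110 CPM in leaf (5.58 ± 0.06). The lowest fold change was that of JAL35, a jasmonate-responsive jacalin lectin, with 9.10 and 9.43 CPM in protoplasts and 22.8 and 21.6 CPM in leaf (-1.26 ± 0.08). VSP1 and CORI3 were thus lower, VSP2 was not called and CLH1 differed by a fraction of a log2 unit in the same libraries in which 14 of these 18 genes were higher. Beside the outputs, TAT3, a jasmonate-induced tyrosine aminotransferase on the same list and a relative of CORI3, had 151 and 149 CPM in protoplasts and 1.10 and 0.988 CPM in leaf (7.17 ± 0.08).

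Of 12 listed genes of the jasmonate and ethylene ERF branch, 7 were tested, of which 5 were higher, 1 was lower and 1 did not pass, against 39.8% higher and 40.7% lower of all tested genes. ERF2, an ethylene response factor, had 307 and 360 CPM in protoplasts and 1.53 and 1.21 CPM in leaf (log2 fold change 7.93 ± 0.11). EIL1, a relative of EIN3, was slightly lower, with 52.5 and 52.3 CPM in protoplasts and 59.8 and 62.6 CPM in leaf (-0.22 ± 0.05). EIN3, the central ethylene transcription factor, had 217 and 211 CPM in protoplasts and 128 and 131 CPM in leaf (0.72 ± 0.05, and -0.09 with library size alone). PR3 and PR4, outputs of the same branch, were lower. The defensin PDF1.2a had 14 and 16 counts in protoplasts and 29 and 13 in leaf and was not called (edgeR adjusted p = 0.576). Its relative PDF1.3 had 10 and 5 counts in protoplasts and 6 and 4 in leaf, a ratio of 2.54 (exact 95% interval for counting error 1.07 to 6.33), and was not tested. PDF1.2b, with 0 counts in both protoplast libraries and 9 and 8 in leaf, and PDF1.2c, with 2 counts in each protoplast library and 1 and 7 in leaf, were not tested either. ORA59, the factor best known for driving PDF1.2, had 0 and 1 counts in protoplasts and 5 and 5 in leaf and was not tested.

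Of 25 listed genes of salicylate synthesis, signalling and response, 22 were tested, and 2 of these passed the filter through protoplasts only. Of the 22, 15 were higher, 5 were lower and 2 did not pass, against 39.8% higher and 40.7% lower of all tested genes, with a median log2 fold change of 1.11, and the split was 11 higher and 9 lower with library size alone. GRX480, a salicylate-induced glutaredoxin that binds TGA factors and is known to restrain PDF1.2, had 176 and 240 CPM in protoplasts and 0.467 and 0.277 CPM in leaf (log2 fold change 9.12 ± 0.20). NPR3, a salicylate receptor that represses defence genes, had 234 and 231 CPM in protoplasts and 11.5 and 11.6 CPM in leaf (4.33 ± 0.06). AED1, an apoplastic aspartyl protease, had the lowest fold change, with 8.21 and 8.09 CPM in protoplasts and 20.7 CPM in both leaf libraries (-1.34 ± 0.08). PR1 did not pass the test and PR2 and PR5 were 2.07-fold and 1.34-fold higher by summed counts beside these changes.

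Each output was then set beside its relatives in the genome. Of 21 listed PR1-like CAP genes, 11 had no row in the table and 4 were tested. Of these 4, 2 were higher and 2 lower, against 39.8% higher and 40.7% lower of all tested genes. With library size alone 0 were higher and 2 lower. AT3G09590 had the largest log2 fold change (1.2 ± 0.27), PR-1-LIKE the smallest (-4.59 ± 0.79), and AT5G66590 had 5.00 and 5.31 CPM in protoplasts and 16.6 and 16.2 CPM in leaf. PR-1-LIKE had 1 and 0 counts in protoplasts and 26 and 22 in leaf. It passed the filter through leaf only, which favoured its direction. PRB1, the closest relative of PR1 with 83.5% identical coding sequence, is among the genes without a row. Of 7 listed glucanases near PR2, 3 were tested, and each passed the filter through a single kind of sample, BG1 through protoplasts and BG3 and AT4G16260 through leaf, so the filter favoured the directions of BG1 and AT4G16260. BG1 had 24 and 14 counts in protoplasts and 0 in both leaf libraries, at least 21.5-fold higher with leaf set to 3 counts over the group. Without protoplast replicate 1 it did not pass the filter and was not tested. AT4G16260 had 11 and 0 counts in protoplasts and 73 and 96 in leaf (-3.16 ± 0.52) and was called lower in edgeR but not in DESeq2. The remaining gene, BG3, was not called.

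Of 15 listed chitinases other than PR3, 12 were tested, of which 8 were higher, 3 were lower and 1 did not pass, against 39.8% higher and 40.7% lower of all tested genes, with a median log2 fold change of 2.22. Of the 12, AT2G43580 passed the filter through protoplasts only and CTL2 through leaf only, so the filter favoured their directions. AT2G43590 had 23.7 and 19.1 CPM in protoplasts and 0.807 and 0.815 CPM in leaf (log2 fold change 4.72 ± 0.15). CTL1, a chitinase-like protein of cell wall formation, had 189 and 186 CPM in protoplasts and 399 and 424 CPM in leaf (-1.13 ± 0.05). CTL2, its relative in secondary walls, had 3 counts over both protoplast libraries and was 97.8-fold higher in leaf (exact 95% interval for counting error 33.3 to 476).

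Of 21 listed thaumatin-like genes besides PR5, 15 were tested, of which 7 were higher, 6 lower and 2 not called, close to the 39.8% higher and 40.7% lower of all tested genes, and 6 of the 15 passed the filter through a single kind of sample. With upper-quartile factors, the housekeeping genes or library size alone 6 were higher and 8 lower. AT4G36010 had 623 and 614 CPM in protoplasts and 1.22 and 1.14 CPM in leaf (log2 fold change 9.03 ± 0.08). OSM34, an osmotin, had 0 counts in both protoplast libraries and was at least 68.3-fold lower in protoplasts with 3 counts taken over that group. The 0.42 of PR5 lay between these relatives. Of the 8 listed acid phosphatases related to VSP1 and VSP2, 5 were tested, with 2 higher and 3 lower, against 39.8% higher and 40.7% lower of all tested genes. Of the 2 higher genes, AT4G25150 lost its call under 10 of 12 alternatives. AT5G51260 had 61.7 and 64.1 CPM in protoplasts and 10.0 and 10.2 CPM in leaf (2.64 ± 0.06), and AT5G44020 had 0.324 and 0.368 CPM in protoplasts and 108 CPM in both leaf libraries (-8.28 ± 0.11).

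Of the 7 relatives of CORI3 in the tyrosine aminotransferase family, 4 were tested. TAT3 was higher, as given above, and SUR1, the C-S lyase of glucosinolate synthesis, was lower, with 18.8 and 19.7 CPM in protoplasts and 90.0 and 92.6 CPM in leaf (log2 fold change -2.25 ± 0.06). TAT7, an aminotransferase of tyrosine breakdown, had 113 and 111 CPM in protoplasts and 104 and 105 CPM in leaf and was not called (log2 fold change 0.10, edgeR adjusted p = 0.0716). TAT7 was called higher with RLE factors (0.14) and lower with upper-quartile factors (-0.23), the housekeeping genes (-0.21) and library size alone (-0.70). The family counted 1 higher and 1 lower of 4 tested with TMM factors, against 39.8% higher and 40.7% lower of all tested genes. It counted 1 higher and 3 lower under each of these last 3 scalings. CLH2, the other chlorophyllase, with 55.3% coding identity to CLH1, had 8.53 and 8.69 CPM in protoplasts and 12.9 and 14.4 CPM in leaf, and it was lower (-0.67 ± 0.09) where CLH1 was slightly higher.

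**Figure D4:**
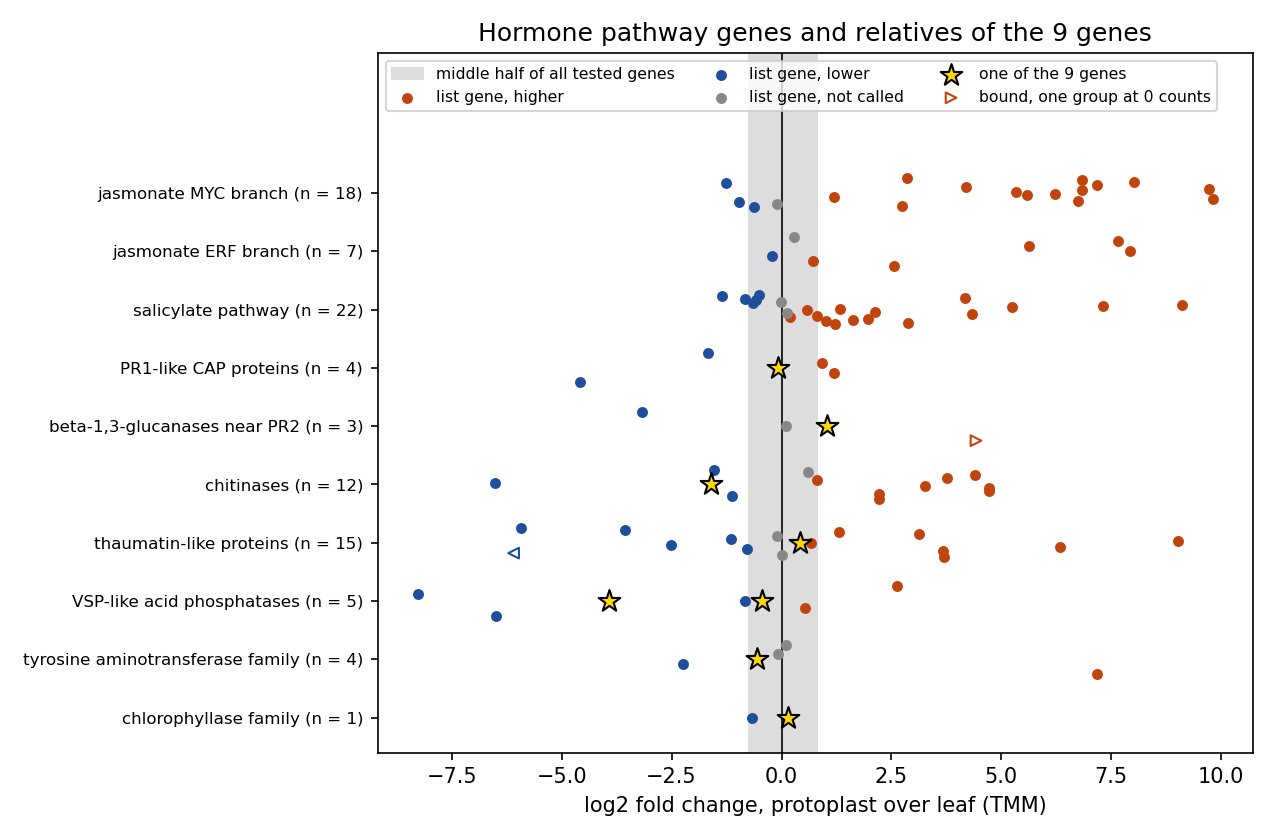
Each dot is a tested gene of a list, placed by its log2 fold change of protoplast over leaf with TMM scaling and coloured by call, stars are the outputs beside their relatives, open triangles are bounds for genes at 0 counts in a group, and the grey band spans the quartiles of all tested genes, -0.75 to 0.82. The jasmonate MYC branch reaches 9.81 while the stars lie between -3.94 and 1.05. PR4 is not drawn because no list of relatives was made for it.

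For each of the 9 genes, the tested gene with a symbol whose levels were most alike was found by the Euclidean distance over log2(CPM + 0.5) in the 4 libraries. CLH1 was nearest to ADK2 (distance 0.0472), PR5 to EMB506 (0.0543), PR2 to BEE1 (0.0729) and CORI3 to RSW3 (0.112). PR1 was nearest to RECQL2 (0.130), VSP1 to DR4 (0.142), PR4 to MYB3 (0.25), PR3 to HB33 (0.272) and VSP2 to PSF2 (0.288).

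The authors' deposited table gives the same direction for each of the 9 genes as the fit used here. Its adjusted p was under 0.05 for 5 of the 9 in the authors' deposited table, against 7 here. The genes above the threshold in the authors' deposited table are PR1 (0.847), VSP2 (0.398), PR3 (0.0897) and CLH1 (0.0558).

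The size of each change rests on how the libraries are made comparable, since the TMM factors are 0.764 and 0.749 for protoplasts and 1.32 for both leaf libraries. The median log2 fold change of all tested genes was -0.04 with TMM factors and -0.01 with RLE factors. It was -0.37 with upper-quartile factors, -0.35 when scaled to 10 housekeeping genes and -0.85 with library size alone. With TMM factors, 6 of these 10 housekeeping genes were called higher in protoplasts, 1 was lower and 3 were not called. When scaled to the 10 genes themselves, 3 were still called higher and 4 lower. They are thus 1 more choice of scaling and not a level standard. Called genes were higher in protoplasts in 49.4% of calls with TMM factors, 35.9% with upper-quartile factors, 36.5% with the housekeeping genes and 23.5% with library size alone. A change of scaling shifts every gene by nearly the same amount, so the distance of a gene from the median of all tested genes is the same under each scaling by construction. PR2 was 1.09 above that median in all 5 scalings, PR5 0.46 above, CLH1 0.20 above and PR1 between -0.04 and -0.03 from it. The others lay under it, with CORI3 at -0.52, VSP2 between -0.41 and -0.40, PR3 between -1.55 and -1.54, PR4 between -2.87 and -2.86 and VSP1 between -3.89 and -3.87.

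**Figure D5:**
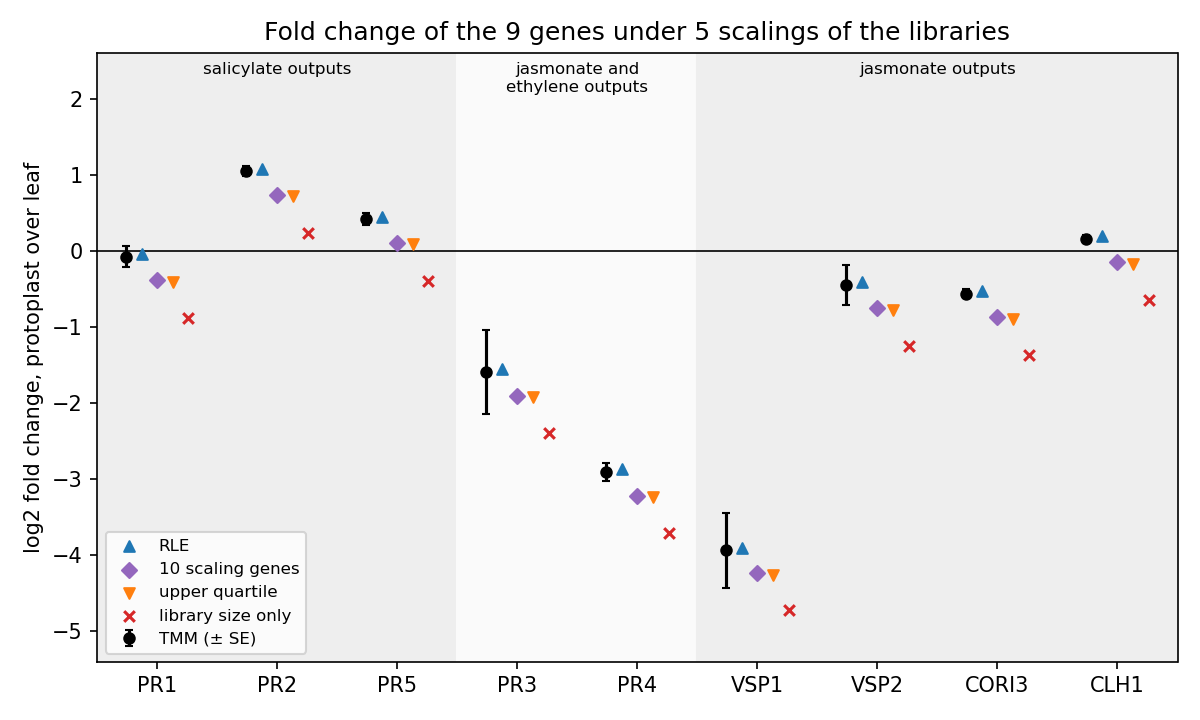
Points give the log2 fold change of protoplast over leaf for each gene under 5 scalings, and the error bar on the TMM point is its SE. PR2 stays above 0 and PR1, PR3, PR4, VSP1, VSP2 and CORI3 stay under 0 in all 5, though PR1 lies within its SE of 0 with TMM factors. PR5 and CLH1 change sign, PR5 with library size alone and CLH1 with 3 of the 5.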

How the data were processed

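Poly(A) RNA was sequenced from leaf protoplasts and intact leaf, 2 libraries each, grouped by their labels. The deposited counts are whole numbers of reads for each locus, unnormalized, in 1 column per library. The submitters' processing notes name STAR and DESeq and no version. The build, gene models, read counter and strandedness were not given in the sources used here. Each deposited row of counts sums to at least 2. A second table of the authors gives mean normalized counts (a signal), a log2 fold change, its standard error and test statistic (each a score by the authors), and the authors' p-value with its adjusted value, per the file headers. Of 24904 loci, 24651 were matched by locus tag to RefSeq's TAIR10.1 annotation, which gave names, coding lengths, sequence identities and overlapping genes only. The 253 others keep their deposited names.

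Testing used edgeR 4.0.16 (R 4.3.3) and its quasi-likelihood F test, with TMM factors, group as the only term and the filterByExpr filter (minimum count 10), which left 20200 genes. Benjamini-Hochberg adjustment ran over all of these, and 0.05 was the threshold. SEs were obtained from the fold change and its F value (log2 size over the root of F). A group at 0 counts was set to 3 counts over the group. Counting error alone enters the intervals and bounds, as the reads carry no molecular identifiers and are not independent molecules. The common biological coefficient of variation was 0.0486. The fit was also run on simulated counts in which few genes were changed, equally many raised and lowered, so that run did not test the scaling between libraries.

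The 9 genes, the lists and the alternatives were chosen with earlier results of these data known. Named besides the 9 genes are, of each list, the called genes with the highest and the lowest log2 fold change and the gene with the highest mean CPM over the 4 libraries, for cell type markers the gene highest in leaf or those at 0, and for each of the 9 the nearest gene. PDF1.2a to PDF1.2c, PDF1.3, ORA59, AT2G43580, BG3, PRB1, AT4G25150 and GL1 were named after their values were seen. Alternatives were RLE and upper-quartile factors, library size only, scaling to 10 housekeeping genes, no filter, DESeq2 1.42.0, limma-voom (limma 3.58.1), a replicate block and each library left out.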

Additional observations from a re-analysis of the deposited data

How the results depend on the processing

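PR2, PR4, VSP1 and CORI3 kept their direction and call under all 12 alternatives. With upper-quartile factors, scaling to the 10 housekeeping genes and library size only, in that order, the genes called higher among the 9 numbered 1, 1 and 1 and those called lower 7, 7 and 8. Under the same 3 scalings the log2 fold change of PR1 was -0.40, -0.38 and -0.88 (called), that of VSP2 -0.77, -0.76 and -1.25 (called), that of PR5 0.088, 0.11 (not called) and -0.39 (called), and that of CLH1 -0.17, -0.15 and -0.65 (called). These scalings multiply a whole library and so shift all genes alike. With library size only, 4326 genes were higher and 14057 lower, and 9 genes of the salicylate pathway list were lower. Without a filter CLH1 had 0.12 (not called), and 2 genes of the ERF branch list were lower. With DESeq2 PR3 had -1.60 (not called).

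Leaving out a library left the other kind of sample to set the spread for the lone library. The log2 fold change then ranged between -0.23 and 0.07 for PR1, -2.54 and -0.89 for PR3, -4.74 and -3.52 for VSP1, -0.72 and -0.13 for VSP2 and 0.13 and 0.17 for CLH1. The salicylate outputs' share of the 9 genes' counts differed by 15.9 to 16.7 percentage points. PR1 was above 0 without leaf replicate 1 (0.071) or protoplast replicate 1 (0.01) and not called in either. PR3 was not called without leaf replicate 2 or protoplast replicate 2, VSP2 was called without leaf replicate 1, and CLH1 was called only without protoplast replicate 2.

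The labels do not say whether same-numbered libraries were prepared as pairs, and they were not treated as pairs. The deviations of same-numbered libraries correlated at -0.169 over all tested genes, which cannot settle how they were prepared. With the replicate block 7782 genes were higher and 7868 lower, and CLH1 was not called at 0.16 (adjusted p = 0.0608), while no other call among the 9 genes changed. With a crossed replicate block, added after seeing the data, 8271 genes were higher and 8475 lower. Depth limits PR3 and VSP1 most, with 13 and 4 counts over both protoplast libraries.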
